A study of Mus musculus with 6 samples.

Results

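Crybb1, which encodes the lens protein beta-B1 crystallin, was followed with 6 other crystallin genes (Cryba4, Crybb2, Crybb3, Cryba1, Cryba2 and Cryab) in brain RNA of Kdm5c deficient and wild-type mice. The members were taken by symbol, 1 row each, and made up 7 of the 43346 rows of the expression table. They were chosen with the comparison of the genotypes already in view, so their levels and fold changes are given here as a description, with no test. RNA was sequenced from the brain of 3 adult male Kdm5c deficient mice and 3 adult male wild-type littermates. Both genotypes came from the same kind of cross, a C57BL/6 female heterozygous for the deficiency with a 129 male, and all mice are labelled as a 50:50 mixture of those strains. The sources used here do not describe the Kdm5c allele or the brain region taken, and they name no treatment. Each mouse gave 1 library, and p-values below measure the spread between these mice.

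Crystallins are the main soluble proteins of the eye lens. The alpha crystallins, Cryaa and Cryab, belong to the small heat shock proteins and keep other proteins from aggregating, while the beta and gamma crystallins share a fold of paired Greek key domains and pack densely to make the lens refractive. Outside the lens, Cryab is known from oligodendrocytes, astrocytes and muscle, and Crybb1 transcripts are known from microglia, the resident macrophages of the brain. Kdm5c, on the X chromosome, encodes an enzyme that removes methyl groups from lysine 4 of histone H3, a mark of active promoters.

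The members lie on 4 chromosomes, and the chromosome 5 genes form neighbouring pairs. In GENCODE M21 on GRCm38, Crybb1 spans 112255815 to 112269585 of chromosome 5 on the plus strand, with 6 exons in its longest coding transcript of 882 nt. Cryba4 spans 112246493 to 112252518 on the minus strand, so the pair is arranged head to head with 3296 bp between the genes. Crybb2 (113058258 to 113070117) and Crybb3 (113075839 to 113081584) lie 788672 bp further along, both on the minus strand and 5721 bp apart. Cryba1 lies on chromosome 11 at 77718615 to 77725283, Cryba2 on chromosome 1 at 74889934 to 74893143, and Cryab on chromosome 9 at 50751325 to 50756636. Exons of Cryab overlap those of Hspb2, its head-to-head neighbour on the other strand, over 252 nt, and 13.3% of the 50-base stretches of Cryab transcripts also occur in Hspb2. The other 6 shared no 50-base stretch with a transcript of another gene. In RefSeq the extents of Cryba4 (to 112263625) and Crybb1 (from 112254563) overlap on opposite strands, and use of strand in the counting is not given in the sources used here, so which of the pair reads between those positions were given to is unknown.

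The promoters of the head-to-head pair are shown because these adjacent genes had unlike values, with Crybb1 well separated between the genotypes and Cryba4 overlapping. The sequences are the 250 bases before the 1 start per gene that the RefSeq promoter table gives (GRCm38.p6), written 5′ to 3′ on the gene's strand. For both genes that start is close to the GENCODE start and lies inside the widest RefSeq extent, so RefSeq also holds transcripts that begin elsewhere. Capitals mark TGCTGA, the core of the element that Maf proteins bind, and TATAAA, the TATA box, on either strand. The Crybb1 promoter is chr5:112255570-112255819 on the plus strand and the Cryba4 promoter is chr5:112252519-112252768 on the minus strand.
Crybb1: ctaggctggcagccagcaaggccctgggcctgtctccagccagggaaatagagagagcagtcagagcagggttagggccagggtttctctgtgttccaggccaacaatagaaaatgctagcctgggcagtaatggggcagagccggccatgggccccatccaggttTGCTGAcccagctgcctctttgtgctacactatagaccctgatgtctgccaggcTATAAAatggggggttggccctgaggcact
Cryba4: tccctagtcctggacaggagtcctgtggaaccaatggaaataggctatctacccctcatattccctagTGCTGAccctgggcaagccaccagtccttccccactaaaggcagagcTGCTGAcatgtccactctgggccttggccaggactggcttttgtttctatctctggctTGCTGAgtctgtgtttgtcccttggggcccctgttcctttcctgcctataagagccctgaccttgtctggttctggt
The 90 bases before the start of Cryba1 (chr11:77725294-77725383, minus strand) and Crybb3 (chr5:113081585-113081674, minus strand) are given for comparison, as promoters of members with few or no reads in brain.
Cryba1: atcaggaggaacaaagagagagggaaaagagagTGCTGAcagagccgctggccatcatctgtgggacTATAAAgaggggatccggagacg
Crybb3: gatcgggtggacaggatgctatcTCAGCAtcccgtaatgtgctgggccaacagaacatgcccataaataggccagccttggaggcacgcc

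Of the 6 member promoters in the RefSeq table, 5 held TGCTGA (Crybb1, Cryba4, Crybb3, Cryba1 and Cryba2), a sequence found in 16.1% of all 32851 promoters over the same 250 bases. Crybb1 had it once, 84 to 79 bases before the start, and Cryba4 had 3 copies. TATAAA was present in Crybb1, 30 to 25 bases before the start, and in Cryba1, against 12.4% of all promoters. None of the 6 held CACGTG (the E-box, 6.02% of all promoters), GAANNTTC (the heat shock element core, 6.69%) or GAGGAAGT (an ETS site of the PU.1 type, 2.44%). Both strands were searched for each motif, and the matches in these promoters did not overlap each other. They describe the letters of these windows and are not evidence of binding.

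The libraries held 20221675 to 24555412 counts, and levels are given as CPM, counts per 1e6 of the scaled library total. Chi-square per gene between mice of 1 genotype ran from 3.56 to 17.6, so no pair of libraries was a duplicate. Kdm5c RNA was read 1572, 1561 and 1713 times in deficient mice 1, 2 and 3 and 1916, 1692 and 1921 times in the wild-type mice. Kdm5c was not past the threshold in edgeR's quasi-likelihood test (adjusted p = 0.196, log2 fold change -0.16 ± 0.07, SE). The allele is not described, so these reads do not check the genotype labels. Deficient mouse 2 stood apart in cerebellar markers, with 131 reads of Gabra6 against 1937 to 3429 in the others.

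Crybb1 was higher in every deficient brain than in any wild-type brain. Deficient mice 1, 2 and 3 had 124, 145 and 116 reads, or 5.83, 6.09 and 5.34 CPM. Wild-type mice 1, 2 and 3 had 47, 26 and 35 reads, or 1.90, 1.27 and 1.53 CPM. The lowest deficient mouse was thus well above the highest wild-type mouse, and the mice of each genotype lay close together. The means were 5.75 ± 0.378 CPM in deficient and 1.57 ± 0.317 CPM in wild-type brain (SD, n = 3 each), a ratio of 3.67. The fitted log2 fold change was 1.86 ± 0.16 (SE). In the authors' deposited table, where fold changes are shrunken toward 0, Crybb1 stood at a log2 value of 1.10 with an SE of 0.14, written here as deficient against wild type. In bulk tissue, more cells of a type and more RNA per cell cannot be told apart.

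Among the 7 crystallin genes, 3 passed the filter on low counts (Crybb1, Crybb3 and Cryab). Over all 15127 genes tested with edgeR's quasi-likelihood test, 4.93% had an adjusted p under 0.05, 371 higher (2.45%) and 375 lower (2.48%), and 24.9% had an unadjusted p under 0.05. With deficient mouse 1, 2 or 3 left out, edgeR called 1101, 360 and 90 genes higher and 997, 324 and 65 lower. With wild-type mouse 1, 2 or 3 left out, it called 38, 47 and 57 higher and 6, 6 and 42 lower. DESeq2 called 611 higher and 597 lower with all mice. Calls of the lists below in those fits stand beside these numbers. The members were chosen on this contrast, so no call is read for them. By log2 fold change Crybb1 ranked 29 among the tested genes, which describes the size of its difference only. Its level was low, since 79.3% of the tested genes had a higher mean CPM.

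The spread of Crybb1 within each genotype was about that of counting. Its coefficient of variation was 6.58% over the deficient mice, where reads of that number would give 8.83% from counting alone, and 20.2% over the wild-type mice, where counting would give 16.7%. When 1 mouse was left out at a time, the log2 fold change lay between 1.74 (without wild-type mouse 2) and 2.03 (without wild-type mouse 1). Without deficient mouse 2 it was 1.82. Summed cerebellar markers of deficient mice 1 and 3 (3156 and 2571 CPM) were also below those of the wild-type mice (3466 to 3977 CPM). Leaving out deficient mouse 2 thus keeps a cerebellar difference between the genotypes, and its part in the level of Crybb1 was not tested.

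**Figure D1:**
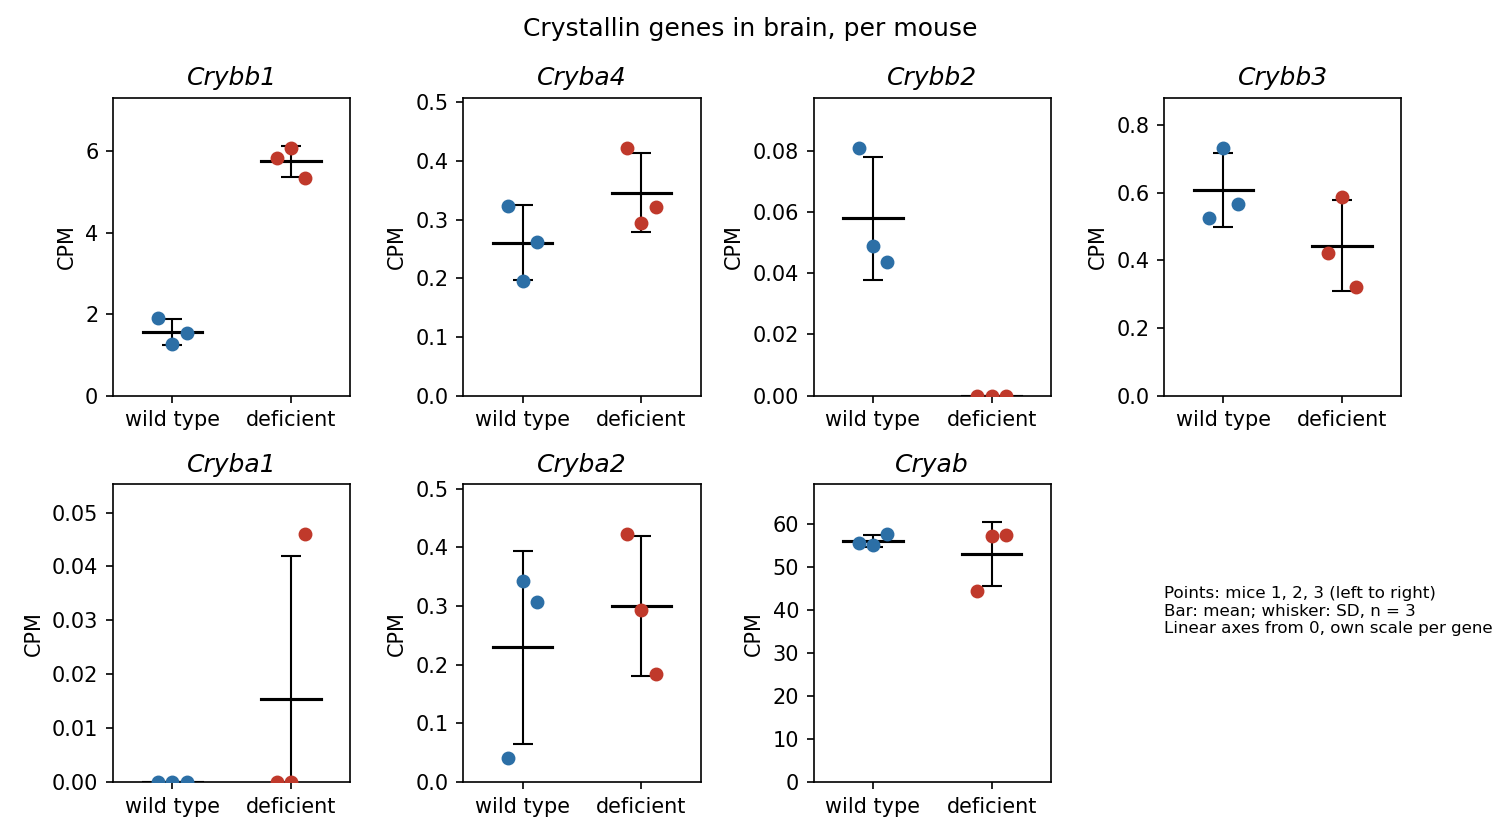
Level of each crystallin gene in CPM (vertical axes, linear from 0, a separate scale per gene) in the 3 wild-type (blue) and 3 deficient (red) brains; points are mice 1, 2 and 3 from left to right, bars the means and whiskers the SD. Crybb1 separates the genotypes, at 5.34 to 6.09 CPM in deficient and 1.27 to 1.90 CPM in wild-type mice, while Cryba4, Crybb3, Cryba2 and Cryab overlap.

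Cryba4, the gene of the beta-A4 chain and the head-to-head neighbour of Crybb1, was barely detected in either genotype. Deficient mice 1, 2 and 3 gave 9, 7 and 7 reads of it, and wild-type mice 1, 2 and 3 gave 8, 4 and 6. The groups overlapped, and the means were 0.346 ± 0.0679 and 0.261 ± 0.0641 CPM (SD, n = 3 each). The ratio of summed reads, 23 against 18 and scaled by library size, was 1.30 deficient over wild type, with a 95% exact interval of 0.671 to 2.56 that covers counting error only. For Crybb1 the same ratio was 3.63, with an interval of 2.92 to 4.53. Ratios inside the interval of Cryba4, including 1, could not be told apart at this depth.

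The other beta crystallin genes of chromosome 5 were also low. Crybb3 reads numbered 9, 14 and 7 among deficient mice and 13, 15 and 13 among wild-type mice. Its levels were 0.444 ± 0.134 and 0.610 ± 0.110 CPM (SD, n = 3 each), and the groups overlapped, since the value of deficient mouse 2 fell inside the range of the wild-type mice. Crybb3 had a fitted log2 fold change of -0.43 ± 0.32 (SE), and single-mouse omissions gave -0.69 to -0.25. Crybb2, which encodes the most abundant beta chain of the lens, had no read in any deficient mouse and 2, 1 and 1 in the wild-type mice. The 0 reads of the deficient mice allow a level of up to 0.0449 CPM over the group (3 counts), and with 4 reads in all no fold is given. The genotypes did not overlap in these 4 reads of Crybb2, nor in Crybb1, in a comparison where the CPM of 30.8% of all tested genes did not overlap (14.9% with the deficient mice higher).

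Cryba1 and Cryba2, which encode acidic beta chains, were near or below detection. Cryba1 had 1 read, in deficient mouse 3, and none in the 5 other mice; the wild-type group's 0 reads allow up to 0.0441 CPM. Cryba2 reads numbered 9, 7 and 4 among deficient and 1, 7 and 7 among wild-type animals. Wild-type mouse 1 was the lowest, and the groups overlapped. The scaled ratio of summed reads of Cryba2 was 1.36, with a counting interval of 0.660 to 2.85.

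Cryab, the alpha-B chain and the one chaperone among the members, was by far the most abundant crystallin transcript in brain. Deficient mice 1, 2 and 3 had 949, 1364 and 1252 reads, or 44.6, 57.2 and 57.6 CPM. The wild-type mice had 1373, 1128 and 1322 reads, or 55.6, 55.2 and 57.8 CPM. Deficient mouse 1 was the lowest of all, and the other deficient mice lay inside the range of the wild-type mice, so the groups overlapped. The means were 53.2 ± 7.41 and 56.2 ± 1.42 CPM (SD, n = 3 each), and the log2 fold change was -0.08 ± 0.09 (SE). Without deficient mouse 1 it turned to 0.03. The coefficient of variation was 13.9% over the deficient mice against 2.90% from counting alone, while over the wild-type mice it was 2.52% against 2.80%. Reads of Cryab are uncertain to the extent of its overlap with Hspb2, which had 11 to 28 reads per mouse.

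Per length of the longest coding transcript, the order of the crystallin genes in wild-type brain was Cryab (50.3 CPM per kb), Crybb1 (1.78), Crybb3 (0.683), Cryba4 (0.323), Cryba2 (0.319), Crybb2 (0.0639) and Cryba1 (no read). Over the wild-type mice Cryab did not overlap Crybb1, Crybb1 did not overlap Crybb3 and Crybb3 did not overlap Cryba4, whereas Cryba4 overlapped Cryba2, and Cryba2 overlapped Crybb2. In deficient brain Crybb1 stood at 6.52 CPM per kb, between Cryab at 47.6 and Crybb3 at 0.498, and the values of Crybb3, Cryba4 and Cryba2 overlapped. Crybb1 supplied 82.1, 83.8 and 85.9% of the beta crystallin reads of the deficient mice and 66.2, 49.1 and 56.5% of those of the wild-type mice. Cryab supplied 86.3 to 90.3% of all reads of the 7 genes in deficient and 95.1 to 95.5% in wild-type mice.

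Other crystallin genes did not pass the test. Of 17 further crystallin and crystallin-related genes in the table, 5 had no read (Crygb, Crygd, Cryge, Crygf and Lgsn) and 7 passed the filter. None of the 7 was past the threshold in either direction by edgeR's quasi-likelihood test, 2 were without overlap between genotypes (30.8% over all tested genes), and their median log2 fold change was 0.03 beside 0.00 over all tested genes. Crym, mu-crystallin, a thyroid hormone binding protein that is no lens structural gene in mice, had 79.1 ± 14.9 CPM in deficient and 59.1 ± 6.14 CPM in wild-type brain (SD, n = 3 each), with a log2 fold change of 0.42 ± 0.13 (SE) and an adjusted p of 0.0904 by edgeR. Aim1, a larger protein with beta-gamma crystallin domains, had a log2 fold change of -0.66 ± 0.22 (SE). Cryaa, the partner of Cryab in the lens, gave 8, 8 and 2 reads in the deficient and 4, 3 and 3 in the wild-type animals, too few to be tested. At an unadjusted p under 0.05 by edgeR 1 was higher and 1 lower, 2 of 7 beside 24.9% of all genes, and DESeq2 called 1 higher, as did edgeR without deficient mouse 1.

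Genes with Hspb symbols, most of them small heat shock protein genes related to Cryab, were mostly above 0 in log2 fold change and none passed. Of 8 such genes, 6 were tested, with a median log2 fold change of 0.23 and 5 of 6 positive. Hspb2, the neighbour of Cryab, gave 17, 28 and 19 reads in the deficient and 11, 12 and 11 in the wild-type animals, without overlap, and a log2 fold change of 0.92 ± 0.27 (SE; edgeR adjusted p of 0.0858). Its exons overlap those of Cryab, which had 949 to 1373 reads per mouse. How many of these few reads came from Cryab transcripts is unknown. Hspb1, a chaperone of the actin cytoskeleton, had 0.59 ± 0.22 (SE), and Hspb8 and Hspb6 had 0.07 and -0.07, with signs that each turned when 1 mouse was left out. At an unadjusted p under 0.05 by edgeR 2 of the 6 were higher, beside 24.9% of all genes in either direction, and DESeq2 and limma-voom called 0.

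Among 24 tested genes that control lens development and crystallin transcription, 1 was higher and none lower, beside 4.93% called over all genes. That gene was Hsf4, the heat shock factor of the lens, at 22.3 ± 1.32 CPM in deficient and 16.2 ± 0.164 CPM in wild-type mice (SD, n = 3 each). Hsf4 had a log2 fold change of 0.46 ± 0.07 (SE; edgeR adjusted p of 0.0164), and it was higher in 3 of 3 deficient mice than in any wild-type mouse. The call was lost when any wild-type mouse was left out, at adjusted p of 0.0840, 0.0789 and 0.0660 by edgeR without wild-type mice 1, 2 and 3. Maf, a transcription factor of lens fibres and macrophages, and Prox1, a homeobox gene of lens fibres and granule neurons, had log2 fold changes of -0.27 ± 0.09 and -0.35 ± 0.10 (SE) without passing in edgeR, with an adjusted p for Prox1 of 0.0816. Prox1 passed in DESeq2 (adjusted p of 0.0226), with no low-count filter (0.0469 by edgeR) and without deficient mouse 1 (0.00926 by edgeR). DESeq2 called 2 genes of the list higher and 2 lower, where it called 611 higher and 597 lower over all genes. The median of the list was 0.03. Without deficient mouse 1, 3 genes of this list were higher and 2 lower, where 1101 were higher and 997 lower over all genes.

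Genes of lens fibres were near 0 in level. Those of the retina ranged from no read to the 21.1 CPM in deficient and 11.2 CPM in wild-type brain of Rlbp1, above Crybb1. Mip, the water channel that is the most abundant membrane protein of lens fibres, gave 2, 1 and 0 reads in the deficient and 0, 1 and 0 in the wild-type animals. Of 9 lens fibre genes in the table only Bfsp1, which encodes filensin, was tested, with a log2 fold change of 0.50 ± 0.19 (SE) and an adjusted p of 0.150 by edgeR. The summed level of the 9 was 2.49 to 2.81 CPM in deficient and 1.66 to 2.14 CPM in wild-type mice. Rcvrn, recoverin, a calcium sensor of photoreceptors, had 0 reads in all 6 mice. Sag, the arrestin gene of rods, had 1.98 ± 0.161 CPM in deficient and 1.31 ± 0.311 CPM in wild-type mice (SD, n = 3 each), a log2 fold change of 0.58 ± 0.21 (SE; edgeR adjusted p of 0.135), and Nrl, a rod transcription factor gene, had 0.66 ± 0.32 (SE; edgeR adjusted p of 0.241). Of 14 retinal genes 5 were tested, with a median log2 fold change of 0.58 and 4 of 5 positive. Of these 5 genes 1 was higher, beside 2.45% of all genes. It was Rlbp1, a retinaldehyde binding protein gene that glial cells also express, at 0.91 ± 0.13 (SE) and an adjusted p of 0.0144 by edgeR. It lost the call without deficient mouse 3 (adjusted p of 0.0501 by edgeR) and without wild-type mouse 1, 2 or 3 (0.0592, 0.0752 and 0.0595 by edgeR). Summed retinal genes were at 23.5 to 28.4 CPM in deficient and 15.5 to 17.2 CPM in wild-type mice, and most of that sum was Rlbp1. Of 8 pineal genes 3 were tested and none passed, at a median of -0.29, and their sums overlapped (6.8 to 11 CPM against 9.4 to 12 CPM). Of the pineal genes 0 of 3 had an unadjusted p under 0.05 by edgeR, beside 24.9% of all genes, and 0 were called by DESeq2 or limma-voom. Without deficient mouse 1, 1 was lower, where 997 were over all genes.

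Most microglial markers had log2 fold changes above 0. All 23 had reads and 21 were tested. Of these, 3 were higher (2.45% over all genes), none lower, and 19 of 21 had a positive log2 fold change, with a median of 0.20. At an unadjusted p under 0.05 by edgeR 12 of the 21 were higher and none lower, beside 24.9% of all genes in either direction. The CPM of 12 of the 21 did not overlap between genotypes, beside 30.8% of all genes. DESeq2 called 8 higher and none lower, where it called 611 higher and 597 lower over all genes. Fcrls and Siglech, receptor genes of microglia, had log2 fold changes of 0.80 ± 0.14 and 0.66 ± 0.10 (SE; edgeR adjusted p of 0.0228 and 0.0193), and Olfml3 had 0.45 ± 0.09. These calls were lost when deficient mouse 3 or any wild-type mouse was left out, when none of the list passed, and without deficient mouse 1 there were 8. Higher calls over all genes moved too, to 90 without deficient mouse 3 and 1101 without deficient mouse 1. They numbered 38, 47 and 57 without wild-type mice 1, 2 and 3, against 371 with all mice. The highest log2 fold change in the list was the 0.80 of Fcrls, beside 1.86 for Crybb1. Crybb1 was chosen with this contrast in view, so a value beyond the list was in part set by that choice. Whether the number of microglia differed was not tested. The summed level of the 23 was 1073 to 1231 CPM in deficient and 1005 to 1082 CPM in wild-type mice, which overlapped.

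Crybb1 is also given against this sum, as a description only. These values hold the CPM of Crybb1, which was chosen with this contrast in view, so their difference was in part set by that choice. Crybb1 stood at 4.74, 5.66 and 4.98 CPM per 1000 CPM of microglial markers in deficient mice 1, 2 and 3. It stood at 1.85, 1.18 and 1.52 in wild-type mice 1, 2 and 3, a ratio of means of 3.38 beside 3.67 for the plain CPM. Sparc, which other brain cells also express, made up more than any other gene of the sum. Without it, in a list trimmed after its values were seen, the 22 others summed to 505 to 566 CPM in deficient mice. In wild-type mice they summed to 452 to 471 CPM, so these sums did not overlap. Their mean was 1.16 times as high in deficient brain and the ratio for Crybb1 was 3.17. Crybb1 did not overlap between the genotypes on either scale, which was in part set by the same choice. Of 13 tested genes known from early or reactive microglia, 1 was higher and 2 lower, beside 2.45% and 2.48% of all genes. Their median was -0.01. Fcrls was higher and Mcm2, a replication licensing gene, and Spp1, osteopontin, were lower (-0.66 ± 0.13 and -0.82 ± 0.19, SE). Both lower calls were lost without deficient mouse 3 or any wild-type mouse. The log2 fold changes were then -0.57 to -0.74 for Mcm2 and -0.70 to -0.92 for Spp1. Of 8 tested markers of macrophages at the brain borders none passed, at a median of 0.05, and their sums overlapped (24.5 to 33.3 against 27.6 to 33.3 CPM). Of these macrophage markers 1 was higher and 1 lower at an unadjusted p under 0.05 by edgeR, 2 of 8 beside 24.9% of all genes. DESeq2 and limma-voom called 0. Without deficient mouse 1, 1 was lower, where 997 were over all genes.

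**Figure D2:**
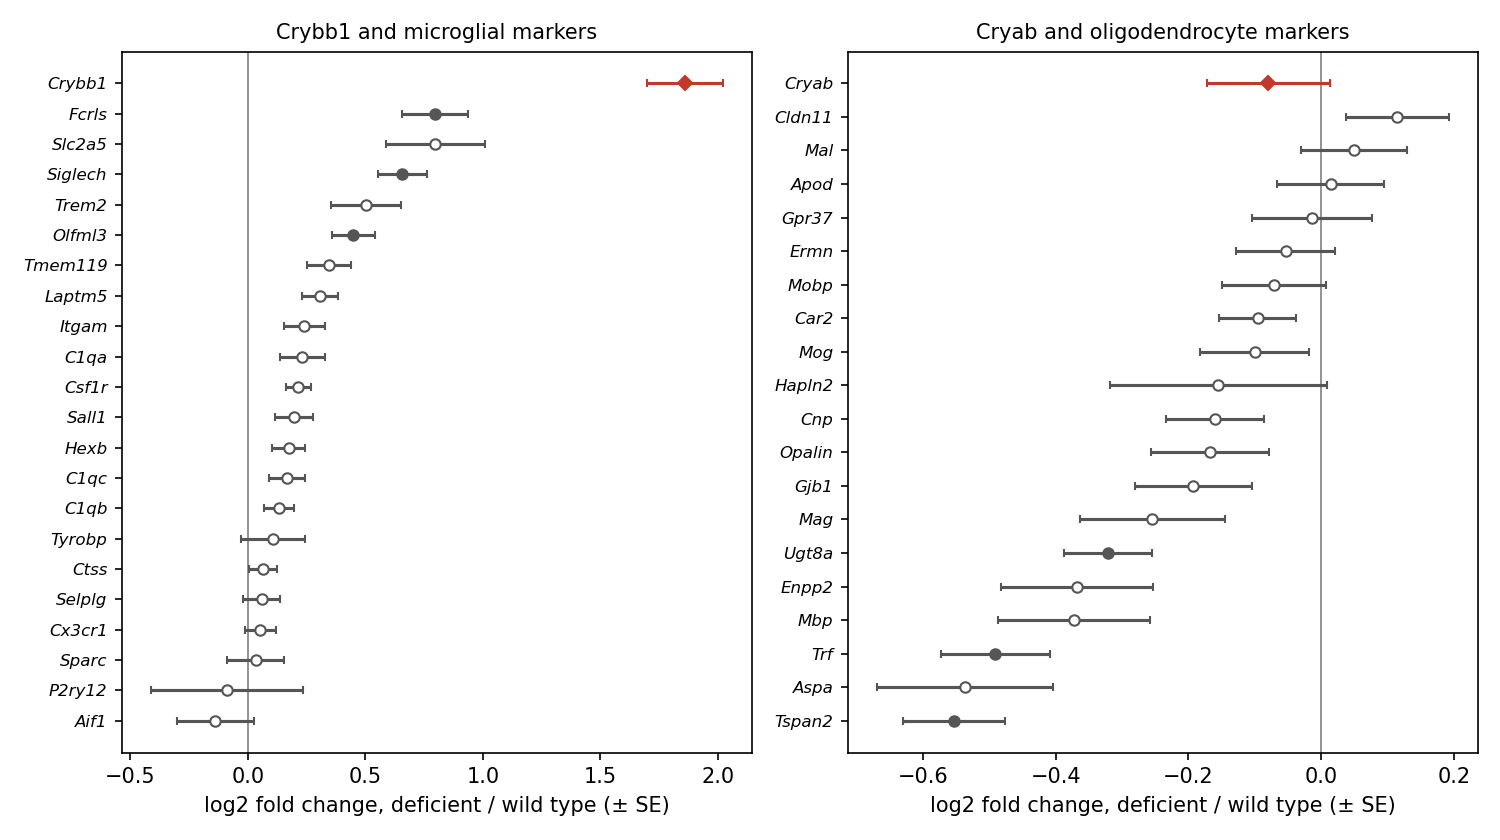
Log2 fold changes, deficient over wild type (horizontal axes, whiskers ± SE), of Crybb1 beside 21 microglial markers (left) and of Cryab beside 19 of the 20 oligodendrocyte markers (right). Red diamonds are the crystallin genes, filled circles are markers past the threshold and open circles are the others. Crybb1, chosen with this contrast in view, is at 1.86 and the highest microglial marker at 0.80. Cryab at -0.08 lies within the range of the oligodendrocyte markers drawn.

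Oligodendrocyte and astrocyte markers are set beside Cryab, which both cell types express. Of 20 oligodendrocyte markers tested, 4 were lower and none higher, where 2.48% of all genes were lower and 2.45% higher. Their median log2 fold change was -0.16. Ugt8a, which encodes an enzyme that makes a myelin lipid, had -0.32 ± 0.07 (SE, edgeR adjusted p of 0.0344). Summed oligodendrocyte markers were at 9071, 7405 and 7242 CPM in deficient mice 1, 2 and 3 and at 9128 to 10214 CPM in wild-type mice, so deficient mouse 1, lowest in Cryab, was the highest deficient mouse in these markers. Per 1000 CPM of oligodendrocyte markers Cryab was at 4.92, 7.73 and 7.96 in the deficient and 5.64, 5.40 and 6.33 in the wild-type animals, with overlap. Of 14 astrocyte markers 1 was higher, beside 2.45% of all genes. It was the gap junction gene Gja1 (0.23 ± 0.05, SE, adjusted p of 0.0311 by edgeR). Summed astrocyte markers were at 5908 to 6461 CPM in deficient against 5609 to 5919 CPM in wild-type mice. The 4 oligodendrocyte calls numbered 9 without deficient mouse 1, 1 with deficient mouse 3 or wild-type mouse 3 left out, and 0 without wild-type mouse 1 or 2. Lower calls over all genes numbered 997 and 65 without deficient mice 1 and 3 and 6, 6 and 42 without wild-type mice 1, 2 and 3. Gja1 lost its call without deficient mouse 3 or any wild-type mouse. DESeq2 called 5 astrocyte markers higher and 7 oligodendrocyte markers lower, where it called 611 higher and 597 lower over all genes. By edgeR, higher astrocyte genes numbered 3 without deficient mouse 1 or 2, where 1101 and 360 were higher over all genes. Without deficient mouse 1, 1 astrocyte gene was lower.

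Other tissue that a brain dissection can hold also differed between mice. Of 16 cerebellar markers none passed and all 16 were below 0, with a median of -0.79, and their sums were at 3156, 1154 and 2571 CPM in deficient mice 1, 2 and 3 and at 3466 to 3977 CPM in wild-type mice. At an unadjusted p under 0.05 by edgeR 4 of the 16 were lower, about the 24.9% of all genes, and DESeq2 and limma-voom called 0. Without deficient mouse 1 or 2, 5 and 3 of them were lower, where 997 and 324 were over all genes. The CPM of 12 of the 16 did not overlap between genotypes, well above the 30.8% of all genes. Of 10 meningeal genes 1 was higher and 1 lower, beside 2.45% and 2.48% of all genes. Ptgds, a prostaglandin synthase gene, was higher and Lum, the matrix protein lumican, lower (log2 fold changes of 0.30 ± 0.07 and -1.13 ± 0.15, SE). Ptgds lost its call when deficient mouse 3 or any wild-type mouse was left out, and Lum without wild-type mouse 1 or 2. The meningeal sums were at 1177 to 1356 against 1033 to 1158 CPM. Of 10 choroid plexus genes none passed, and their sums overlapped (617 to 924 against 818 to 957 CPM). At an unadjusted p under 0.05 by edgeR 1 of the 10 was lower, beside 24.9% of all genes, and DESeq2 and limma-voom called 0. Without deficient mouse 1, 3 were lower, where 997 were over all genes. The part of these differences in the levels of the crystallin genes was not tested.

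Across the 14 lists 155 distinct genes were tested, 7 higher and 7 lower, or 9.03% beside 4.93% over all genes. The number of higher genes was 17 without deficient mouse 1, 10 without deficient mouse 2, 1 without deficient mouse 3 and 0 without any 1 wild-type mouse. Lower genes numbered 24, 10 and 2 without deficient mice 1, 2 and 3 and 0, 0 and 2 without wild-type mice 1, 2 and 3. Over all genes, omitting deficient mice 1, 2 and 3 gave 1101, 360 and 90 higher and 997, 324 and 65 lower. Omitting wild-type mice 1, 2 and 3 gave 38, 47 and 57 higher and 6, 6 and 42 lower. Genes without overlap between genotypes (30.8% over all genes) were 12 of 21 microglial, 12 of 16 cerebellar and 10 of 24 lens regulator genes. They were 6 of 20 oligodendrocyte, 5 of 14 astrocyte, 4 of 13 early microglia, 4 of 10 meningeal and 2 of 8 border macrophage genes. In the remaining lists they were 3 of 6 small heat shock, 3 of 5 retinal, 2 of 7 crystallin, 1 of 1 lens fibre, 0 of 3 pineal and 0 of 10 choroid plexus genes.

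Genes around the crystallin genes were mostly near 0 in log2 fold change. Of 50 protein-coding neighbours, 5 on each side of each member, all were in the table (Grk3 as Adrbk2 and Cfap65 as Ccdc108), 39 were tested, 1 was higher and none lower, with a median log2 fold change of 0.01. The 1 call of 39 stands beside 4.93% of all genes. At an unadjusted p under 0.05 by edgeR 3 were higher and 5 lower, beside 24.9% of all genes, and DESeq2 called 1 in each direction. The number higher was 2 without deficient mouse 1 and 0 without deficient mouse 3 or any wild-type mouse. Tpst2, a protein tyrosine sulfotransferase gene that begins 7105 bp beyond Crybb1, had 24.9 ± 1.49 CPM in deficient and 25.2 ± 1.44 CPM in wild-type mice (SD, n = 3 each), a log2 fold change of -0.02 ± 0.07 (SE) whose sign turned when deficient mouse 1 or wild-type mouse 3 was left out. The higher neighbour was Myo18b, an unconventional myosin gene known from striated muscle, 161895 bp from Crybb2. It had 3.90, 5.04 and 4.83 CPM in deficient and 2.27, 2.84 and 2.41 CPM in wild-type mice, a log2 fold change of 0.88 ± 0.16 (SE) and an adjusted p of 0.0234 by edgeR. The call of Myo18b was lost without deficient mouse 3 (adjusted p of 0.0694 by edgeR) and without wild-type mouse 1, 2 or 3 (0.103, 0.0808 and 0.0845 by edgeR).

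Next to the other members, Adrbk2 (a G protein-coupled receptor kinase gene beside Crybb2) had a log2 fold change of -0.14 ± 0.05, Nufip2 and Myo18a, beside Cryba1, -0.15 ± 0.07 and 0.06 ± 0.05, and Ccdc108, beside Cryba2, -0.39 ± 0.13 (SE), none of them past the threshold. Fev, the serotonin neuron factor gene on the other side of Cryba2, gave 14, 1 and 0 reads in the deficient and 7, 8 and 6 in the wild-type animals. The non-coding gene Miat, which ends 17097 bp before Cryba4 and was chosen after its values were seen, was lower, at 175 ± 21.8 against 276 ± 36.6 CPM (SD, n = 3 each). Miat had a log2 fold change of -0.65 ± 0.11 (SE; edgeR adjusted p of 0.0228), a call lost without wild-type mouse 1 or 2 (0.0966 and 0.107 by edgeR), and an antisense gene overlaps it. Crybb1 and Miat thus differed in opposite directions on either side of Cryba4.

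**Figure D3:**
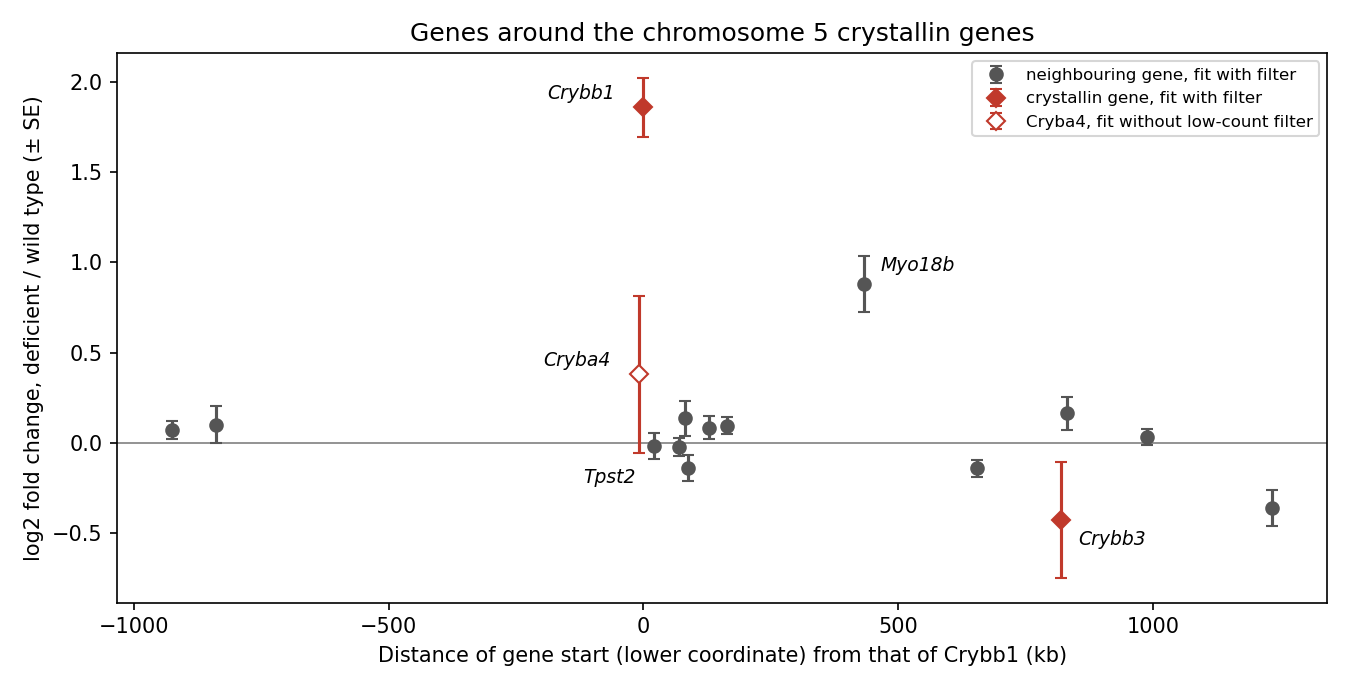
Log2 fold change, deficient over wild type (vertical axis, whiskers ± SE), of tested protein-coding genes against the distance of their lower end from that of Crybb1 in kb (horizontal axis). Crystallin genes are red diamonds, open for Cryba4, which was fitted without the low-count filter, and neighbours are grey; Crybb1 at 1.86 and Myo18b at 0.88 stand above the rest, while Tpst2 lies at -0.02.

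The 10 genes whose profile over the 6 mice was nearest to that of Crybb1 were found among 13961 other genes averaging 1 CPM or more, by the root-mean-square difference of mean-centred log2 CPM. They were Pgam2 (0.14), Hfe2 (0.15), Amn (0.15), Scarf2 (0.18), BC024139 (0.20), Ces5a (0.24), 2900052N01Rik (0.24), BC049352 (0.24), Jsrp1 (0.27) and Dnah1 (0.27). Pgam2, the muscle form of phosphoglycerate mutase, had 15.2, 16.0 and 15.9 CPM in deficient and 5.06, 2.79 and 4.07 CPM in wild-type mice. Like Crybb1 it was lowest in wild-type mouse 2 and highest in deficient mouse 2, a likeness favoured by the way it was picked. Scarf2, a scavenger receptor gene, had 14.6 ± 1.10 CPM in deficient and 4.05 ± 0.320 CPM in wild-type mice (SD, n = 3 each). Since a profile near that of Crybb1 has to separate the genotypes, the log2 fold changes of these genes, 1.45 to 1.97, were fixed by the way they were picked.

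**Figure D4:**
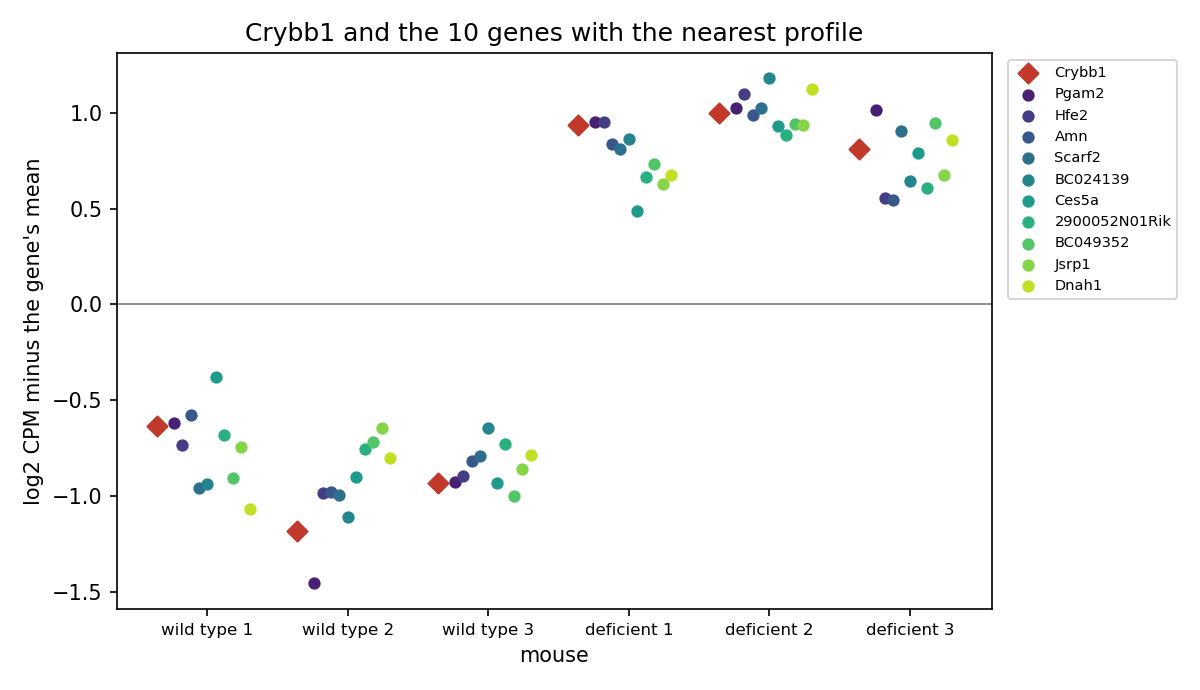
Mean-centred log2 CPM (vertical axis) of Crybb1 (red diamonds) and of the 10 genes with the nearest profile (circles) in each of the 6 mice (horizontal axis). All 11 genes are below their own mean in the 3 wild-type mice and above it in the 3 deficient mice.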

How the data were processed

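Raw counts per gene symbol were deposited for brain RNA of 3 deficient and 3 wild-type mice; per the labels' protocols, RNA was column purified and libraries came from an Illumina TruSeq RNA kit. The submitters' processing notes name DESeq2 and GRCm38; the sources used here do not give the aligner, counter or annotation. Also deposited by the authors were a mean signal across the mice, a shrunken log2 fold change (wild type over deficient) with its SE, a Wald score and a p-value per gene, which served only for comparison.

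The counts went into edgeR 4.0.16 under R 4.3.3 (default expression filter, minimum count 10 and total 15; TMM scaling; quasi-likelihood test on genotype; Benjamini-Hochberg over 15127 genes, threshold 0.05). Members and lists were chosen with earlier results of these data known. Beside all members, up to 4 genes per list with the smallest p-values, neighbours, and the 10 nearest profiles could be named; some genes under this rule are not reported here. Positions came from GENCODE M21, promoters from RefSeq. Intervals are exact binomial and cover counting error only. Alternatives were DESeq2 1.42.0, limma-voom (limma 3.58.1), other scalings and filters, a replicate block and leaving out each mouse. In a simulation over 15127 genes the shares that edgeR recovered were 80% for 1.5-fold, 84% for 2-fold, 100% for 3-fold and 94% for 4-fold changes, and 10.1% of its calls were unchanged genes.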

Additional observations from a re-analysis of the deposited data

How the results depend on the processing

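Crybb1 kept its direction in all 14 alternative fits, with log2 fold changes of 1.85 to 1.87 over the 8 other scalings, filters, tests and designs and 1.74 to 2.03 when 1 mouse was left out. Over the same fits Crybb3 ranged from -0.69 to -0.25 (it was not tested at 1 CPM in 3 samples), and Cryab from -0.14 to 0.03. Genes higher and lower over all genes numbered 371 and 375. They numbered 558 and 563 with no low-count filter, 611 and 597 with DESeq2, 49 and 9 with the replicate block, and 38 to 1101 and 6 to 997 with 1 mouse left out. Listed genes, 7 higher and 7 lower, numbered 14 and 11 with no filter, 18 and 12 with DESeq2, 0 and 0 with the replicate block, and 0 to 17 and 0 to 24 with 1 mouse left out. Neighbours, 1 higher and 0 lower, were 0 higher with the replicate block and 0 to 2 higher and 0 to 1 lower with 1 mouse left out; 1 was lower with no filter and 1 with DESeq2. The omissions leave fewer mice and the block fewer degrees of freedom. The cause of these shifts was not tested. The block rests on mouse numbers alone, and the labels do not say that a number marks a pair. Deviations of same-numbered mice correlated at -0.06, -0.06 and 0.14, and those of differently numbered mice at -0.11 to 0.16. With so few mice these values cannot decide whether the numbers pair the mice. The block left Crybb1 at a log2 fold change of 1.87. With 1 mouse left out, the sign of the log2 fold change turned for Cryl1 (-0.064 to 0.095), Hspb6 (-0.13 to 0.024), Hspb8 (-0.028 to 0.13) and Tpst2 (-0.066 to 0.028). Depth limits Cryba4, Crybb2, Cryba1 and Cryba2, whose reads per mouse were under the minimum of the filter.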
